A study of Mus musculus with 21 samples.

Results

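A set of 10 transcription factor genes of the naive pluripotent state was followed through the series: Klf2, Klf4, Klf5, Esrrb, Tfcp2l1, Tbx3, Nr5a2, Prdm14, Zfp42 and Nanog. They were chosen by symbol, as 10 of the 31053 Ensembl gene identifiers in the count tables, and all 10 passed the filter on low counts that left 10643 genes for testing. Messenger RNA was sequenced in 21 libraries of E14Tg2a, an embryonic stem cell line from a male mouse of the 129 background. Every library, controls included, came from cells that carry a destabilised green fluorescent protein (GFPd2) knocked in at 1 allele of Rex1, the other name of Zfp42. The 7 groups of 3 libraries were 2i+LIF PO, 2i+LIF LP, CH+LIF LP, LIF LP, 2i+LIF HP, CH+LIF HP and LIF HP. LIF is the cytokine leukaemia inhibitory factor, CH is CHIR99021, an inhibitor of the kinase GSK3, and 2i is the usual name for CHIR99021 given with PD0325901, an inhibitor of the kinase MEK. Sampling was at passage zero and at 1 and 2 months of culture, and whether LP or HP names the longer culture is not stated. PO was read as zero passage because it occurs in 2i+LIF alone. A single growth protocol is given for all libraries and describes drugs added and taken away from passage to passage, so the medium at harvest is known only from the group name.

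Naive pluripotency is the state of the early epiblast that mouse embryonic stem cells keep in culture. A network of transcription factors holds it, and each factor is fed by particular signals. LIF acts through JAK and STAT3 and raises Klf4 and Tfcp2l1. GSK3 inhibition stabilises beta-catenin and lifts the repression that TCF7L1 exerts on genes such as Esrrb, Klf2 and Tfcp2l1. MEK inhibition blocks the FGF and ERK signal that drives cells out of the state and favours Nanog and Klf2. The factors bind many of the same enhancers as OCT4 and SOX2, and much of the network can tolerate the loss of a single member.

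Promoter sequence was available for 7 of the 10 genes, from RefSeq on the GRCm38.p6 build. The 250 bases before the transcription start are shown for 5 of them: Klf4, which passed no test below, Tfcp2l1, which had the largest group difference, and Esrrb, Zfp42 and Nanog, in which a searched motif was found. Letters run 5′ to 3′ on the strand of the gene, and capitals mark a motif match.
Klf4 (chr4:55532476-55532725, minus strand): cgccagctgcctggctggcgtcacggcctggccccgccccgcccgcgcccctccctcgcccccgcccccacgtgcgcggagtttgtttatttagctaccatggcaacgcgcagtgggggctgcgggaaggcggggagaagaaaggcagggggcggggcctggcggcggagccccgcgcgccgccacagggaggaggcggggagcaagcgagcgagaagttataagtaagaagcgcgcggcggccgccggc
Tfcp2l1 (chr1:118627695-118627944, plus strand): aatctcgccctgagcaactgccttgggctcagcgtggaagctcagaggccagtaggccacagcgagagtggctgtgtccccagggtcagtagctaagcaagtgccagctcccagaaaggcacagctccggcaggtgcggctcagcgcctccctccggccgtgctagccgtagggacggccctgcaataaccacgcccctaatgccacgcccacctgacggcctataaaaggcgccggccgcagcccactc
Esrrb, the first listed start (chr12:86360867-86361116, plus strand): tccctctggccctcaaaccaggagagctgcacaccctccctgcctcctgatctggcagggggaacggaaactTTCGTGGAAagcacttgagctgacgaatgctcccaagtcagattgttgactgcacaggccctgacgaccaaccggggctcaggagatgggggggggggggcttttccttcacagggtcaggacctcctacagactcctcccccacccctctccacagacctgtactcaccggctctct
Zfp42 (chr8:43307010-43307259, minus strand): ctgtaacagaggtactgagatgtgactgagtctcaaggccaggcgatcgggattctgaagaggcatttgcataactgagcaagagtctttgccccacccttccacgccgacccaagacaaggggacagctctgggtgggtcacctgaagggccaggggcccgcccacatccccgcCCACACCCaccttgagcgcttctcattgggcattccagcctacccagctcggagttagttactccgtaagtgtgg
Nanog, the first listed start (chr6:122707239-122707488, plus strand): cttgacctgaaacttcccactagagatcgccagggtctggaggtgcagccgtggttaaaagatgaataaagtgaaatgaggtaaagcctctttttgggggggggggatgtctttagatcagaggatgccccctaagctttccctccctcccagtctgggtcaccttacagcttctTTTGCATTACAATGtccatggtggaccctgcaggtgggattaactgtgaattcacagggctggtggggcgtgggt

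Each motif was searched on both strands of all 32851 RefSeq promoter windows of this length. The STAT element TTCNNNGAA was present in 7.02% of them and, among the factors, in Esrrb at bases -178 to -170 from the start. CCACACCC, a CACCC box of the kind that KLF proteins bind, was present in 3.2% of windows and in Zfp42 at -75 to -68. The OCT4-SOX2 composite element lay on the reverse strand in Nanog at -75 to -62. It was found in 2 windows (0.00609%), both of them Nanog's, and was searched because it is the known element of that promoter, so the match is no independent finding. The capitals in the Nanog line show its letters there. TCAAGGTCA, bound by ESRRB, was present in 0.387% of windows and CTTTGA, the core that TCF and LEF factors bind, in 13.8%, and neither occurred in the factors' windows. Base composition varied widely between the windows: 74% of the Klf4 window was G or C with 32 CpG dinucleotides, 71.2% with 29 for Klf2, 65.2% with 16 for Tfcp2l1, 60.8% with 6 for Esrrb, 58.4% with 9 for Zfp42, 52% with 3 for Nanog and 43.2% with 2 for Nr5a2. These are the first listed windows. Esrrb, Nr5a2 and Nanog each had a second, with 52%, 49.6% and 57.6% G or C and 3, 6 and 2 CpG dinucleotides. The median over all windows was 52.4%.

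Gene counts per library ran from 1132126 to 3783043, with a median of 1763531. Levels are given as counts-per-million (CPM) of gene counts after TMM scaling, and since CPM ignores gene length they are compared only within a gene. Both 2i+LIF LP replicate 1 and 2i+LIF PO replicate 1 agreed less with their replicates than other libraries did. The first, with a mean correlation of log2 CPM of 0.787 and 31.7% of its counts in Gm42418, a locus that overlaps ribosomal RNA, and the second, with 0.83 and 39.1% mitochondrial counts, are called the libraries that stood apart. Their values are kept below, and calls that changed without them are named. Nothing says whether replicates were separate cultures, so p-values measure the spread between these libraries. By their file names the PO libraries come from a sequencing run of their own, so run and PO cannot be told apart in any comparison with PO. In RNA from whole cultures, fewer cells of a type and less RNA per cell cannot be told apart. Embryonic stem cell markers (Pou5f1, Sox2, Sall4, Utf1 and Fgf4) summed to between 552 and 1860 CPM in every library, while fibroblast markers summed to at most 36.4 CPM and primitive endoderm markers to at most 24.5 CPM. Neural markers reached 253 CPM, in 2i+LIF LP replicate 1, and trophectoderm markers 167 CPM, in a LIF HP library. Group names stand for the libraries so labelled, because the ERK target Dusp6 goes against some of the names. It averaged 37.1 ± 5.75 CPM (SD, n = 3) in CH+LIF HP but 0.411 ± 0.711 CPM in LIF HP, where no MEK inhibitor is named, and in 2i+LIF LP it was 0.701, 34.4 and 26.3 CPM in replicates 1, 2 and 3. Sp5, a Wnt target that GSK3 inhibition raises, went against the names too. It averaged 1.03 ± 0.46 CPM in CH+LIF LP and 24.5 ± 5.34 CPM in LIF HP, where no GSK3 inhibitor is named, without overlap. Axin2, another such target, averaged 5.16 ± 5.32 and 9.06 ± 3.12 CPM in the same groups, which overlapped.

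**Figure D1:**
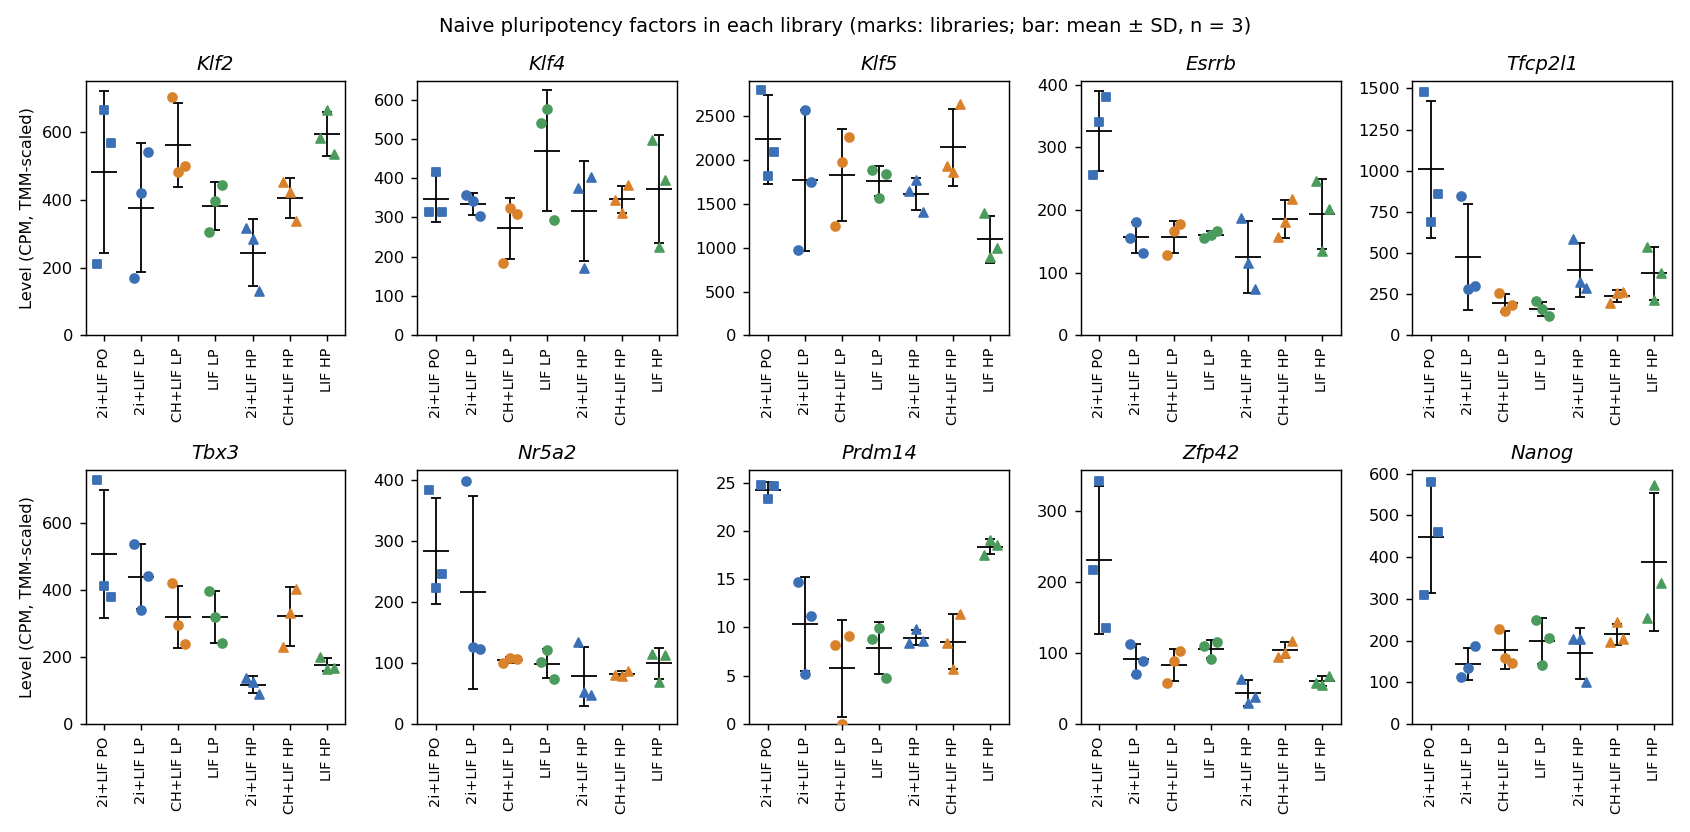
Level of each factor in CPM (TMM-scaled, linear axes from 0) in the 7 groups; marks are single libraries, coloured by medium and shaped by PO, LP or HP, and the bars give the mean ± SD of 3 libraries. The PO mean is the highest of the 7 in 8 of the 10 panels, and the scatter within 2i+LIF PO and 2i+LIF LP is wide for Tfcp2l1 and Nr5a2. How many of all genes are highest in PO, whose run differs, was not counted.

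The comparison of each cultured group with 2i+LIF PO asked how the factors stood after culture relative to zero passage. Of 60 such tests, 10 factors in 6 groups, 25 passed an adjusted p under 0.05 in edgeR's quasi-likelihood test with Benjamini-Hochberg adjustment over all genes tested, and in all 25 the factor was lower than in PO. The 6 comparisons share the PO libraries and are therefore not separate observations. Tfcp2l1, Nr5a2 and Zfp42 each fell in 5 of the 6 groups, Nanog in 4, Esrrb in 3, Tbx3 in 2 and Prdm14 in 1. Klf2, Klf4 and Klf5 passed the test in none of the 6.

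In 2i+LIF LP, the same medium name as PO, 2 factors fell, Zfp42 and Nanog, against 2.27% of all genes tested. In CH+LIF LP, 6 fell (4.07% of all genes): Esrrb, Tfcp2l1, Nr5a2, Prdm14, Zfp42 and Nanog. LIF LP had 5, the same list without Prdm14, beside 6.11% of all genes. In 2i+LIF HP, 6 fell (4.79% of all genes), namely Esrrb, Tfcp2l1, Tbx3, Nr5a2, Zfp42 and Nanog. CH+LIF HP had 2, Tfcp2l1 and Nr5a2, beside 2.45% of all genes, and LIF HP had 4, Tfcp2l1, Tbx3, Nr5a2 and Zfp42, beside 5.17%. The median log2 fold change of the 10 factors was -0.73 in 2i+LIF LP, -1.20 in CH+LIF LP, -1.07 in LIF LP, -1.39 in 2i+LIF HP, -0.94 in CH+LIF HP and -0.89 in LIF HP. Over all genes tested the medians lay between -0.10 and -0.05.

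Markers of other cell types differed between these groups too, and their part in the results was not tested. The 4 neural markers summed to 36.9 to 72.4 CPM in PO, 110.2 to 253 CPM in 2i+LIF LP, 125 to 138.0 CPM in CH+LIF LP, 189.5 to 208 CPM in LIF LP, 34.5 to 156.2 CPM in 2i+LIF HP, 57.3 to 59.7 CPM in CH+LIF HP and 88.1 to 144.8 CPM in LIF HP. The 3 LP groups and LIF HP were above PO without overlap. Of the 4, 2 rose in 2i+LIF LP (Pax6 and Tubb3), 3 in LIF LP (Sox1, Pax6 and Tubb3) and 1 in 2i+LIF HP (Pax6), beside 2.79%, 5.84% and 5.8% of all genes. The 6 trophectoderm markers summed to 73.3 to 120.2 CPM in PO, 51.4 to 63.8 CPM in 2i+LIF LP, 29.1 to 80.5 CPM in CH+LIF LP, 32.5 to 61.1 CPM in LIF LP, 75.7 to 100.4 CPM in 2i+LIF HP, 30.1 to 35 CPM in CH+LIF HP and 127 to 167.0 CPM in LIF HP. Only LIF HP lay above PO without overlap, and 2i+LIF LP, LIF LP and CH+LIF HP lay below it. Of the 3 trophectoderm markers tested, Cdx2 (3.44, SE 0.99, adjusted p = 0.031, a log2 fold change from edgeR) and Krt7 (4.86, SE 1.11, adjusted p = 0.00749) rose in 2i+LIF HP, where the sum overlapped that of PO, and Tfap2c fell in LIF LP and CH+LIF HP. The 4 mesendoderm markers summed to 15 to 19.9 CPM in PO, 10.6 to 35.1 CPM in 2i+LIF LP, 4.85 to 7.59 CPM in CH+LIF LP, 3.32 to 11.6 CPM in LIF LP, 23 to 46.9 CPM in 2i+LIF HP, 7.16 to 10.7 CPM in CH+LIF HP and 9.27 to 24.6 CPM in LIF HP. Of the 2 mesendoderm markers tested, T rose in 2i+LIF HP (8.43, SE 1.41, adjusted p = 0.00083) and the other passed in none of the groups. The size of the change of T rests on few or no counts in PO. The filter on low counts kept 3 of the 6 trophectoderm and 2 of the 4 mesendoderm markers. A marker counted mainly in 2i+LIF HP can pass the filter through that group. How many of those tested rose there is thus partly fixed by the filter. The 5 markers of 2-cell-like cells were at 0 in all PO libraries and at 6.71 to 11.5 CPM in 2i+LIF HP. The 5 embryonic stem cell markers summed to 966 to 1314 CPM in PO, 552 to 753 CPM in 2i+LIF HP and 751 to 804 CPM in LIF HP.

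These counts moved with the libraries used. In 2i+LIF LP the count was 0 without PO replicate 2 and 1 without 2i+LIF LP replicates 2 or 3, and in CH+LIF HP it was 0 without CH+LIF HP replicate 1 and 1 without replicates 2 or 3. In LIF LP it was 1 whichever LIF LP library was left out, 2 without PO replicate 2 and 3 without PO replicate 3. In CH+LIF LP it was 2 without PO replicates 2 or 3 or CH+LIF LP replicates 1 or 2, and 3 without CH+LIF LP replicate 3. In 2i+LIF HP it was 2 without 2i+LIF HP replicate 3, and in LIF HP 2 without PO replicate 1 or LIF HP replicates 2 or 3. Of the 25 calls, 6 passed whichever single library of their comparison was left out: Tfcp2l1 in CH+LIF LP and LIF LP, and Tbx3 and Zfp42 in 2i+LIF HP and LIF HP. Without the 2 libraries that stood apart the counts were 4, 6, 6, 6, 5 and 4 in the order above, and in fits of only the 2 groups compared they were 0, 1, 3, 2, 2 and 1. In those fits 8 of the 25 calls passed: Tfcp2l1 in CH+LIF LP, LIF LP and CH+LIF HP, Nr5a2 in LIF LP and CH+LIF HP, Tbx3 in 2i+LIF HP, and Zfp42 in 2i+LIF HP and LIF HP. The remaining 1 was Prdm14 in LIF LP, which was no call in the fit of all libraries. The share of all genes called in each of these refits is not given here. Whether the moves are particular to the factors is therefore not known.

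**Figure D2:**
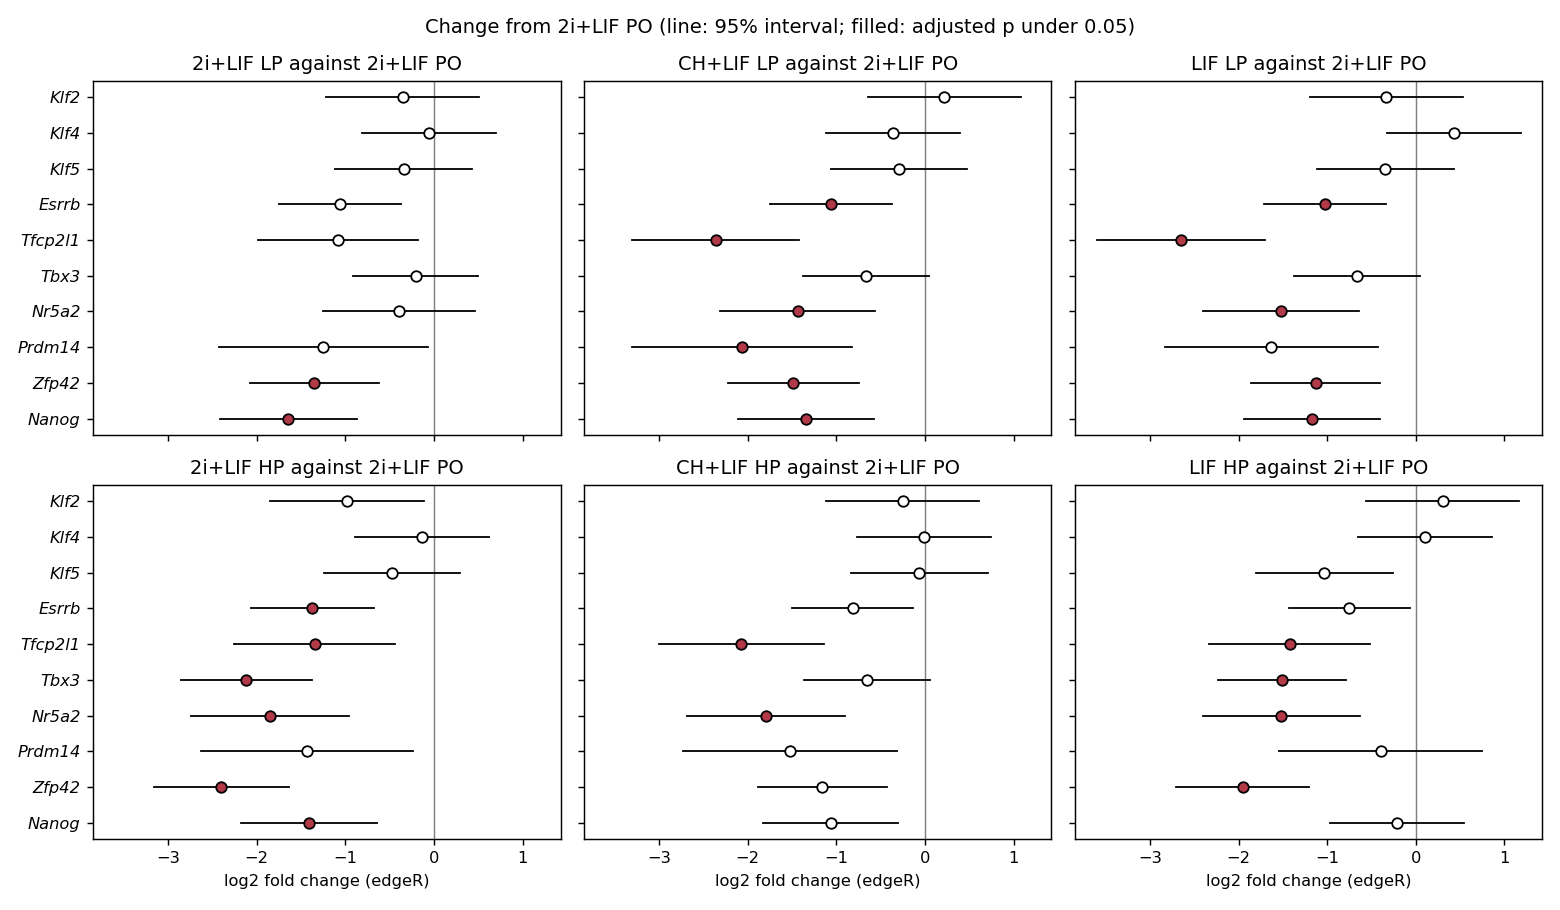
Log2 fold change of each factor against 2i+LIF PO (x axis, edgeR), 1 panel per cultured group; lines are 95% intervals and filled points passed an adjusted p under 0.05. The 25 filled points all lie left of 0, and the points of Klf2, Klf4 and Klf5 are open in every panel.

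The Kruppel-like factors Klf2, Klf4 and Klf5 are zinc finger proteins that can partly replace each other in sustaining self-renewal. Klf2 (ENSMUSG00000055148, chr8:72319033-72321656, plus strand, GRCm38) stood at 211, 667 and 567 CPM in the 3 PO libraries. At LP, Klf2 stood at 168.3, 419.8 and 542 CPM in 2i+LIF, 704, 481 and 499 CPM in CH+LIF and 304, 398 and 445 CPM in LIF. At HP, Klf2 stood at 317, 284 and 131.3 CPM in 2i+LIF, 453, 423 and 338 CPM in CH+LIF and 584, 664 and 537 CPM in LIF. The lowest values within PO and within 2i+LIF LP belonged to the 2 libraries that stood apart, and the groups overlapped at every step of the order of means. The highest mean, 595 ± 64.3 CPM (SD, n = 3) in LIF HP, and the lowest, 244 ± 99.1 CPM in 2i+LIF HP, did not overlap. Their log2 difference was 1.28 (SE 0.43, adjusted p = 0.0903) in edgeR's test. It passed without the 2 libraries that stood apart, in DESeq2 and in a fit of only the 2 groups. Against PO, the log2 difference of Klf2 in 2i+LIF HP was -0.98 (95% interval -1.85 to -0.11), and it passed where PO replicate 1 was left out, alone or with 2i+LIF LP replicate 1.

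Klf4 (ENSMUSG00000003032, chr4:55527143-55532466, minus strand), a STAT3 target and one of the factors that reprogram somatic cells, varied least. In PO, Klf4 read 314, 417 and 314 CPM. At LP, Klf4 read 357, 342 and 303 CPM in 2i+LIF, 184, 324 and 308 CPM in CH+LIF and 541, 576 and 293 CPM in LIF. At HP, Klf4 read 376, 171 and 403 CPM in 2i+LIF, 344, 312 and 382 CPM in CH+LIF and 497, 226 and 397 CPM in LIF. All neighbours in the order of means overlapped, from 470.2 ± 154.5 CPM in LIF LP to 272 ± 76.6 CPM in CH+LIF LP, a ratio of 1.73. The log2 differences from PO ran from -0.36 to 0.43, and the 95% intervals reached -1.11 and 1.19, so changes of that size are within the spread of these libraries.

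Klf5 (ENSMUSG00000005148, chr14:99298691-99315036, plus strand), which supports self-renewal and the choice between epiblast and the other early lineages, had 2805, 1820.3 and 2088 CPM in PO. At LP, Klf5 had 976, 2578 and 1751 CPM in 2i+LIF, 1250.4, 1978 and 2262 CPM in CH+LIF and 1887, 1569.6 and 1837 CPM in LIF. At HP, Klf5 had 1654, 1776 and 1411 CPM in 2i+LIF, 1929.5, 1859.5 and 2647 CPM in CH+LIF and 1402, 889 and 995 CPM in LIF. LIF HP was lowest, its 3 libraries below every library of 2i+LIF HP, the next group up. Its log2 difference from PO, -1.03 (SE 0.38, adjusted p = 0.0719), and from CH+LIF HP, -0.97 (SE 0.38, adjusted p = 0.219), did not pass edgeR's test. The first passed in DESeq2, and the second passed without the 2 libraries that stood apart and in a fit of only the 2 groups.

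Tfcp2l1 (ENSMUSG00000026380, chr1:118627945-118685168, plus strand) is a CP2-family factor on which LIF and GSK3 inhibition converge, and it had the widest range of the 10 genes. The PO libraries held 1477, 687 and 861 CPM of Tfcp2l1. At LP, Tfcp2l1 came to 849, 281 and 301 CPM in 2i+LIF, 259, 146.5 and 183 CPM in CH+LIF and 205, 158.7 and 117 CPM in LIF. At HP, Tfcp2l1 came to 585, 322 and 285 CPM in 2i+LIF, 197, 258 and 264 CPM in CH+LIF and 534, 214 and 380.2 CPM in LIF. Every cultured library except 2i+LIF LP replicate 1 was below every PO library. Means fell 6.29-fold from 1009 ± 415 CPM in PO to 160.5 ± 44.1 CPM in LIF LP, with overlap between each pair of neighbours in the order.

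In edgeR's test against PO, Tfcp2l1 changed by a log2 fold change of -2.65 (SE 0.46, adjusted p = 0.000576) in LIF LP, -2.36 (SE 0.46, adjusted p = 0.00235) in CH+LIF LP and -2.07 (SE 0.45, adjusted p = 0.00834) in CH+LIF HP. The changes were smaller in LIF HP, -1.42 (SE 0.44, adjusted p = 0.0363), and in 2i+LIF HP, -1.34 with an adjusted p of 0.04999, next to the threshold. In 2i+LIF LP the log2 difference was -1.08 (SE 0.44, adjusted p = 0.146). That difference passed with the replicate number as a block. Same-numbered libraries deviated together in this comparison alone. Both libraries that stood apart are its replicates 1, so this shows no pairing. The difference also passed without 2i+LIF LP replicate 1, the library with 849 CPM, left out alone or with PO replicate 1. The LIF LP and CH+LIF LP calls passed whichever single library was left out, and the CH+LIF HP call did not pass without CH+LIF HP replicate 1 (adjusted p over all alternatives 0.000113 to 0.0568). The LIF HP call did not pass without PO replicates 1 or 3 or LIF HP replicates 2 or 3 (0.00871 to 0.188). The 2i+LIF HP call did not pass without PO replicates 1 or 3 or 2i+LIF HP replicates 2 or 3 (0.0148 to 0.236), nor without both libraries that stood apart, without mitochondrial genes and Gm42418, with DESeq2 size factors or in a fit of only the 2 groups.

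Among the cultured groups Tfcp2l1 was not called, though LIF HP and LIF LP did not overlap and differed by a log2 value of 1.23 (SE 0.44, adjusted p = 0.0735). This difference passed in DESeq2, with the replicate block, in a fit of only the 2 groups and without the 2 libraries that stood apart. LIF LP and 2i+LIF LP differed by -1.57 (SE 0.45, adjusted p = 0.122), a difference that passed in DESeq2 and with no filter on low counts but was -0.85 (adjusted p = 0.466) without the 2 libraries that stood apart. Within 2i+LIF LP the library with 849 CPM of Tfcp2l1 had 0.701 CPM of Dusp6, and those with 281 and 301 CPM had 34.4 and 26.3 CPM.

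Tbx3 (ENSMUSG00000018604, chr5:119670669-119684724, plus strand), a T-box repressor downstream of LIF and PI3K signalling, was the only factor called between cultured groups. In PO the libraries gave 729, 414 and 380.4 CPM of Tbx3. At LP, Tbx3 gave 538, 342 and 443 CPM in 2i+LIF, 422, 295 and 241 CPM in CH+LIF and 399, 319 and 242 CPM in LIF. At HP, Tbx3 gave 136.2, 126 and 88.2 CPM in 2i+LIF, 230.3, 332 and 405 CPM in CH+LIF and 201, 165.7 and 166.9 CPM in LIF. The 3 libraries of 2i+LIF HP were the lowest of all 21 and the 3 of LIF HP the next lowest, and neither group overlapped another. PO and the remaining 4 groups overlapped along the order of means.

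Tbx3 fell from 441 ± 97.8 CPM in 2i+LIF LP to 117 ± 25.3 CPM in 2i+LIF HP, a log2 fold change of -1.91 (SE 0.36, adjusted p = 0.00215) in edgeR's test, where 3.67% of all genes tested were called and 2.05% were lower. This call passed whichever single library of the groups compared was left out but not in a fit of only the 2 groups (log2 fold change -1.97, adjusted p over all alternatives 2.77e-06 to 0.0686). In the same contrast 1 of 2 mesendoderm markers tested rose, T (log2 fold change 4.21), 2 of 3 trophectoderm markers rose, Cdx2 (4.48) and Krt7 (4.77), 1 of 4 neural markers fell, Sox1 (-4.05), and 1 of 5 embryonic stem cell markers fell, Utf1 (-4.53). The filter on low counts can admit markers through 2i+LIF HP itself. The counts of mesendoderm and trophectoderm markers that rose are thus partly fixed by it. From 2i+LIF LP to 2i+LIF HP the summed levels went from 10.6 to 35.1 CPM to 23 to 46.9 CPM for mesendoderm, from 51.4 to 63.8 CPM to 75.7 to 100.4 CPM for trophectoderm and from 1056 to 1860 CPM to 552 to 753 CPM for embryonic stem cell markers. Their part in the change of Tbx3 was not tested. The CH+LIF HP libraries had more Tbx3 than those of 2i+LIF HP, with a log2 fold change of 1.46 (SE 0.35, adjusted p = 0.0236), where 2.02% of all genes were called and 1.1% were higher. In that contrast Cdx2 (-7.63), Krt7 (-8.48) and T (-4.06) were lower and Utf1 (4.76) higher. In CH+LIF HP replicates 1, 2 and 3, only 1, 2 and 1 of the 6 trophectoderm markers had any count. The sizes given for Cdx2 and Krt7 thus rest on values at or near 0. Both the trophectoderm and the mesendoderm sums were lower without overlap. Embryonic stem cell markers summed higher without overlap, at 923 to 1012 CPM against 552 to 753 CPM. Their part in the Tbx3 difference was not tested. The Tbx3 call did not pass without 2i+LIF HP replicates 2 or 3 or CH+LIF HP replicates 2 or 3 (0.00197 to 0.148). Against PO, Tbx3 fell by 2.12 on the log2 scale in 2i+LIF HP (SE 0.36, adjusted p = 0.000446) and by 1.51 in LIF HP (SE 0.35, adjusted p = 0.00799). The LIF HP call did not pass in a fit of only the 2 groups (adjusted p = 0.0567). The change from LP to HP differed between CH+LIF and 2i+LIF by 1.93 (SE 0.49), with an unadjusted p of 0.000582 in edgeR that did not pass adjustment over all genes (adjusted p = 0.194) but passed in DESeq2. Tbx3 overlaps Tbx3os1 on the opposite strand, and the strand setting of the counting was not given in the sources used here, so reads of the pair cannot be told apart.

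The orphan nuclear receptors Esrrb and Nr5a2 bind similar DNA elements, and both can sustain or restore the naive state. Esrrb (ENSMUSG00000021255, chr12:86361117-86521628, plus strand) was at 256, 341 and 381 CPM in PO. At LP, Esrrb was at 155.7, 180.4 and 131.96 CPM in 2i+LIF, 127, 165.8 and 177 CPM in CH+LIF and 155.9, 159.4 and 166.9 CPM in LIF. At HP, Esrrb was at 187, 116 and 73.8 CPM in 2i+LIF, 157.01, 181 and 218 CPM in CH+LIF and 246, 134.9 and 201 CPM in LIF. All 18 cultured libraries were below all 3 PO libraries, and the 6 cultured groups overlapped among themselves. Esrrb fell, with a log2 fold change of -1.37 (SE 0.34, adjusted p = 0.0104) in 2i+LIF HP, -1.06 (SE 0.34, adjusted p = 0.0488) in CH+LIF LP and -1.02 (SE 0.33, adjusted p = 0.0457) in LIF LP, in edgeR's test. In the other 3 groups the log2 differences were -1.06 (2i+LIF LP), -0.82 (CH+LIF HP) and -0.75 (LIF HP). The call in 2i+LIF HP did not pass without 2i+LIF HP replicate 3 (0.000465 to 0.137 over all alternatives). Those in CH+LIF LP (0.00909 to 0.181) and LIF LP (0.0104 to 0.145) did not pass without PO replicates 2 or 3 or with any library of the cultured group left out. Both were also lost with no filter on low counts and in fits of only the 2 groups, and that in CH+LIF LP without mitochondrial genes and Gm42418. The difference in 2i+LIF LP passed in DESeq2, and it and that in CH+LIF HP passed without the 2 libraries that stood apart.

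Nr5a2 (ENSMUSG00000026398, chr1:136842571-136960448, minus strand), also called LRH-1, measured 384, 223 and 246 CPM in PO. At LP, Nr5a2 measured 399, 126 and 124 CPM in 2i+LIF, 99.8, 109 and 106 CPM in CH+LIF and 102, 121 and 74.5 CPM in LIF. At HP, Nr5a2 measured 133.9, 52.9 and 47.9 CPM in 2i+LIF, 80.5, 79.2 and 86.8 CPM in CH+LIF and 115, 69.6 and 113 CPM in LIF. Replicate 1 of 2i+LIF LP held the highest level of all 21 libraries, and its 2 replicates were below PO, as was each library of the other 5 groups. In edgeR's test Nr5a2 fell, with a log2 fold change of -1.85 (SE 0.43, adjusted p = 0.00736) in 2i+LIF HP and -1.79 (SE 0.43, adjusted p = 0.015) in CH+LIF HP. It fell by 1.52 on the log2 scale in LIF LP (SE 0.43), by 1.52 in LIF HP (SE 0.43) and by 1.44 in CH+LIF LP (SE 0.43), with adjusted p of 0.0209, 0.0224 and 0.0368.

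Of these Nr5a2 calls, the 2i+LIF HP call did not pass without 2i+LIF HP replicate 3 (adjusted p 0.000359 to 0.0725 over all alternatives) and the CH+LIF HP call did not pass whichever CH+LIF HP library was left out (0.000846 to 0.0787). The LIF LP call did not pass without PO replicate 1 or with any LIF LP library left out (0.00402 to 0.0955), and the LIF HP call without PO replicate 1 or LIF HP replicates 2 or 3 (0.00401 to 0.128). For CH+LIF LP the call passed only where PO replicate 2 was the library left out (0.0099 to 0.12). Between 2i+LIF HP and 2i+LIF LP the log2 difference of Nr5a2 was -1.45 (SE 0.43, adjusted p = 0.0562), which passed in DESeq2 and with the replicate block, though the groups overlapped. Without the 2 libraries that stood apart, one of which is the 2i+LIF LP library with 399 CPM, it was -0.64 (adjusted p = 0.329).

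Prdm14 (ENSMUSG00000042414, chr1:13113457-13127163, minus strand), a repressor of FGF receptor signalling and of DNA methyltransferase genes, was the least counted, with 526 counts over all libraries. In PO it had 47, 89 and 99 counts, or 24.8, 23.3 and 24.7 CPM. At LP, Prdm14 reached 14.7, 5.17 and 11.2 CPM in 2i+LIF, 8.24, 0 and 9.11 CPM in CH+LIF and 8.81, 9.96 and 4.81 CPM in LIF. At HP, Prdm14 reached 8.37, 9.81 and 8.63 CPM in 2i+LIF, 8.43, 5.72 and 11.4 CPM in CH+LIF and 17.5, 19.1 and 18.5 CPM in LIF. PO was highest without overlap, LIF HP came next, also without overlap on either side, and the other 5 groups overlapped. The count of 0 in CH+LIF LP replicate 2 allows up to 3 counts.

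Prdm14 fell in CH+LIF LP, with a log2 fold change of -2.06 (SE 0.61, adjusted p = 0.0339) in edgeR's test. That call did not pass without PO replicates 2 or 3 or CH+LIF LP replicates 1 or 2 (adjusted p 0.00354 to 0.122 over all alternatives). The other log2 differences from PO were -1.63 in LIF LP, -1.52 in CH+LIF HP, -1.43 in 2i+LIF HP, -1.25 in 2i+LIF LP and -0.40 in LIF HP, and their standard errors were 0.56 to 0.59. In DESeq2 those of LIF LP, 2i+LIF HP and CH+LIF HP passed, and that of LIF LP also passed without the 2 libraries that stood apart and in a fit of only the 2 groups. LIF HP and LIF LP differed by 1.23 (SE 0.60, adjusted p = 0.188) without overlap.

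Zfp42 (ENSMUSG00000051176, chr8:43295063-43306980, minus strand) is a zinc finger gene used as the standard reporter of the naive state, and the cells carry the GFPd2 knock-in at this locus. Whether transcripts of the knock-in allele were counted for Zfp42 was not tested. Its PO libraries held 217, 343 and 135.1 CPM. At LP, Zfp42 held 114, 70.6 and 89.5 CPM in 2i+LIF, 57.7, 89 and 103 CPM in CH+LIF and 109.6, 91.6 and 116 CPM in LIF. At HP, Zfp42 held 64.1, 29.4 and 37.4 CPM in 2i+LIF, 94.7, 100.2 and 117 CPM in CH+LIF and 57.2, 54.8 and 68 CPM in LIF. No cultured library reached the lowest PO library, and 2i+LIF HP and LIF HP were lowest, with overlap between them.

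In edgeR's test Zfp42 fell most in 2i+LIF HP, with a log2 fold change of -2.40 (SE 0.37, adjusted p = 0.000183), and in LIF HP, with -1.95 (SE 0.36, adjusted p = 0.00164). It also fell in CH+LIF LP, 2i+LIF LP and LIF LP, with log2 fold changes of -1.48 (SE 0.36, adjusted p = 0.0116), -1.35 (SE 0.36, adjusted p = 0.0274) and -1.13 (SE 0.35, adjusted p = 0.0362). In CH+LIF HP the log2 difference was -1.16 (SE 0.35, adjusted p = 0.0505), which passed in DESeq2, with DESeq2 size factors in edgeR, with the replicate block and without the 2 libraries that stood apart. The 2i+LIF HP and LIF HP calls passed whichever single library was left out. Without PO replicate 2, the library with 343 CPM, the calls in the 3 LP groups did not pass. Nor did the CH+LIF LP call without CH+LIF LP replicate 1 (adjusted p 0.00111 to 0.0774 over all alternatives), the 2i+LIF LP call without 2i+LIF LP replicates 2 or 3 (0.00708 to 0.373), or the LIF LP call with any of its libraries left out (0.0151 to 0.233). At HP, the 3 CH+LIF libraries were all above the 3 2i+LIF libraries, with a log2 difference of 1.24 (SE 0.36, adjusted p = 0.0806) that passed in DESeq2 and without the 2 libraries that stood apart.

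Nanog (ENSMUSG00000012396, chr6:122707489-122714633, plus strand), the homeodomain factor whose level fluctuates between single stem cells, counted 308, 579 and 460.2 CPM in PO. At LP, Nanog counted 112, 133.04 and 186 CPM in 2i+LIF, 229, 157.4 and 146.6 CPM in CH+LIF and 249.5, 141.4 and 206 CPM in LIF. At HP, Nanog counted 204, 204 and 99.7 CPM in 2i+LIF, 197, 244 and 203 CPM in CH+LIF and 254, 573 and 338 CPM in LIF. LIF HP overlapped PO and lay above every library of the other 5 cultured groups, which were all below PO. Nanog fell, with a log2 fold change of -1.64 (SE 0.38, adjusted p = 0.0125) in 2i+LIF LP, -1.41 (SE 0.37, adjusted p = 0.0173) in 2i+LIF HP, -1.34 (SE 0.37, adjusted p = 0.0268) in CH+LIF LP and -1.17 (SE 0.37, adjusted p = 0.0388) in LIF LP, in edgeR's test. The log2 difference was -1.06 (95% interval -1.83 to -0.30) in CH+LIF HP, where it passed in DESeq2 and without the 2 libraries that stood apart, and -0.21 (95% interval -0.96 to 0.54) in LIF HP.

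Without PO replicate 2, none of the 4 Nanog calls passed. The 2i+LIF LP call passed with any other single library left out (adjusted p 0.000463 to 0.289 over all alternatives). The 2i+LIF HP call also failed without 2i+LIF HP replicate 3 (0.00172 to 0.137), the CH+LIF LP call without PO replicate 3 or CH+LIF LP replicates 2 or 3 (0.00316 to 0.0996), and the LIF LP call without PO replicate 3 or with any LIF LP library left out (0.00505 to 0.189). Among cultured groups, Nanog in LIF HP exceeded 2i+LIF HP by a log2 difference of 1.20 (SE 0.37, adjusted p = 0.0698) and LIF LP by 0.96 (SE 0.37, adjusted p = 0.0944). Both passed in DESeq2 and without the 2 libraries that stood apart.

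Comparisons among the 6 cultured groups asked how medium and LP or HP bore on the factors within the run that their file names share. Of 90 tests, 2 passed in edgeR, both of Tbx3, and 21 had an unadjusted p under 0.05, beside 13.3% of all gene tests in the same 9 contrasts. In the other 7 contrasts edgeR called 0 factors at an adjusted p under 0.05, and each count below is followed by the share of all genes. At LP, between CH+LIF and 2i+LIF (0% of all genes called in edgeR), 2 factors had an unadjusted p under 0.05 (8.93%) and DESeq2 called 0 (0.235%). In LIF LP against 2i+LIF LP (0.489%), 2 had an unadjusted p under 0.05 (11.9%) and DESeq2 called 1 (1.72%). In LIF LP against CH+LIF LP (0.047%), the counts were 1 (4.71%) and 0 (0.262%). In LIF HP against 2i+LIF HP (3.78%), they were 2 (19.5%) and 2 (6.98%), and in LIF HP against CH+LIF HP (1.47%), 4 (14.7%) and 0 (3.29%). From LP to HP, CH+LIF (0.0094%) had 0 (5.37%) and 0 (0.132%), and LIF (9.96%) had 5 (26.3%) and 2 (14.9%).

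A single test for any difference among the 6 cultured groups called Tbx3 (adjusted p = 0.00488), with 13.1% of all genes called. Nanog (0.0541) and Tfcp2l1 (0.0565) missed the threshold in edgeR. Without the 2 libraries that stood apart, 5 factors passed this test, Klf2, Tfcp2l1, Tbx3, Zfp42 and Nanog. The share of all genes that passed in that fit is not given here, so the count says nothing about the factors in particular. Differences of Tbx3 and Zfp42, each with all LIF HP values below those of LIF LP and of CH+LIF HP, passed only in fits of the 2 groups compared and, for Tbx3 against LIF LP, without the 2 libraries that stood apart. In edgeR no factor passed a test of whether the change from LP to HP differed between media, in which 0.0188% (CH+LIF against 2i+LIF), 0.15% (LIF against 2i+LIF) and 0.423% (LIF against CH+LIF) of all genes were called. At an unadjusted p under 0.05 the counts of factors were 2, 4 and 1, beside 6.49%, 11% and 11.7% of all genes. DESeq2 called 1, Tbx3, in the first (0.254% of all genes) and 0 in the others (1.19% and 1.26%).

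**Figure D3:**
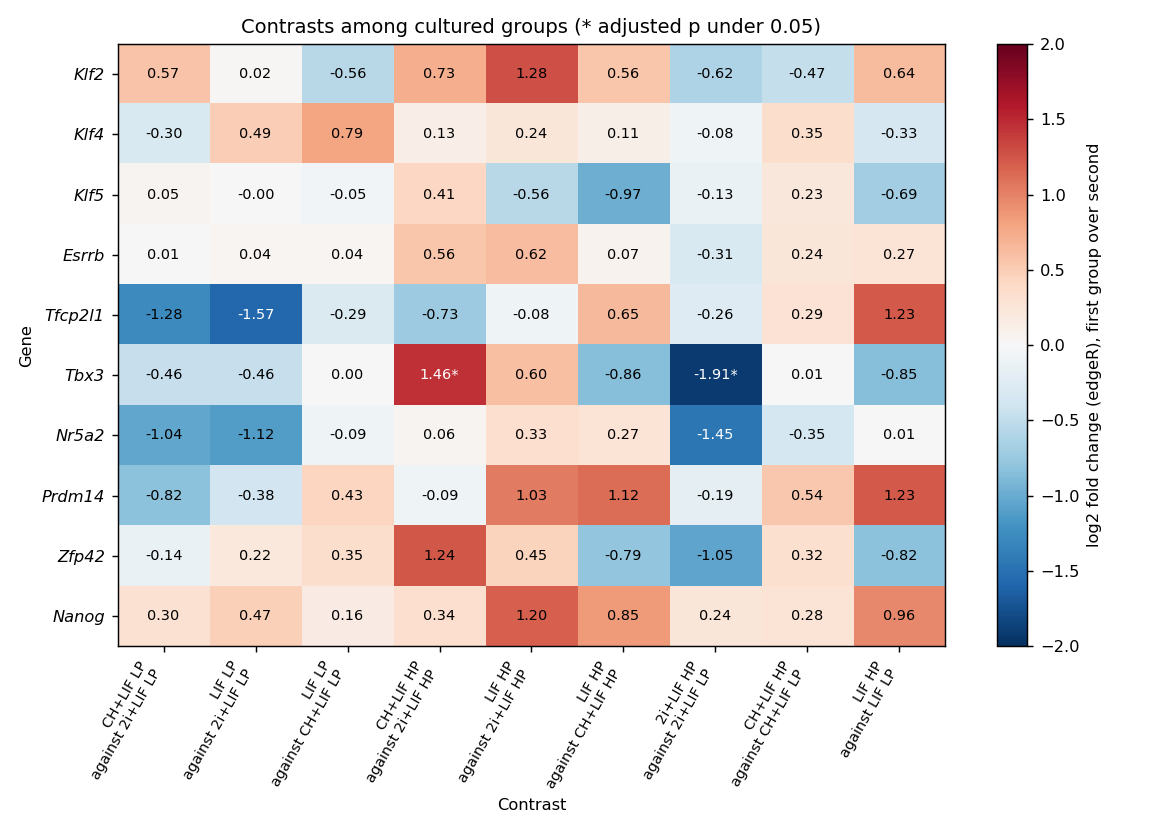
Log2 fold changes of the 10 factors (rows) in the 9 contrasts among cultured groups (columns), first group over second, with colour from blue (lower) to red (higher). The 2 cells with an asterisk, both Tbx3, passed an adjusted p under 0.05.

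The factors did not share 1 pattern across libraries. Over the 21 libraries, in each of which both genes of a pair share depth and preparation, the log2 CPM of Tbx3 and Zfp42 had a Pearson r of 0.738, Esrrb and Zfp42 0.716, Tfcp2l1 and Nr5a2 0.757, and Nr5a2 and Zfp42 0.683. Over the 19 libraries without the 2 that stood apart, these values were 0.691, 0.712, 0.576 and 0.680. Esrrb and Nr5a2 went from 0.641 to 0.830 between the 2 sets, and Klf2 and Nr5a2 from -0.08 to 0.558, so the libraries that stood apart set part of these values. The 3 Klf genes were not aligned with each other: Klf2 and Klf4 had r = -0.18 over 21 libraries and -0.22 over 19, Klf2 and Klf5 -0.08 and -0.19, and Klf4 and Klf5 0.09 and 0.14. Klf2 and Nanog had 0.570 and 0.616, and Klf5 and Nanog -0.12 and -0.37.

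**Figure D4:**
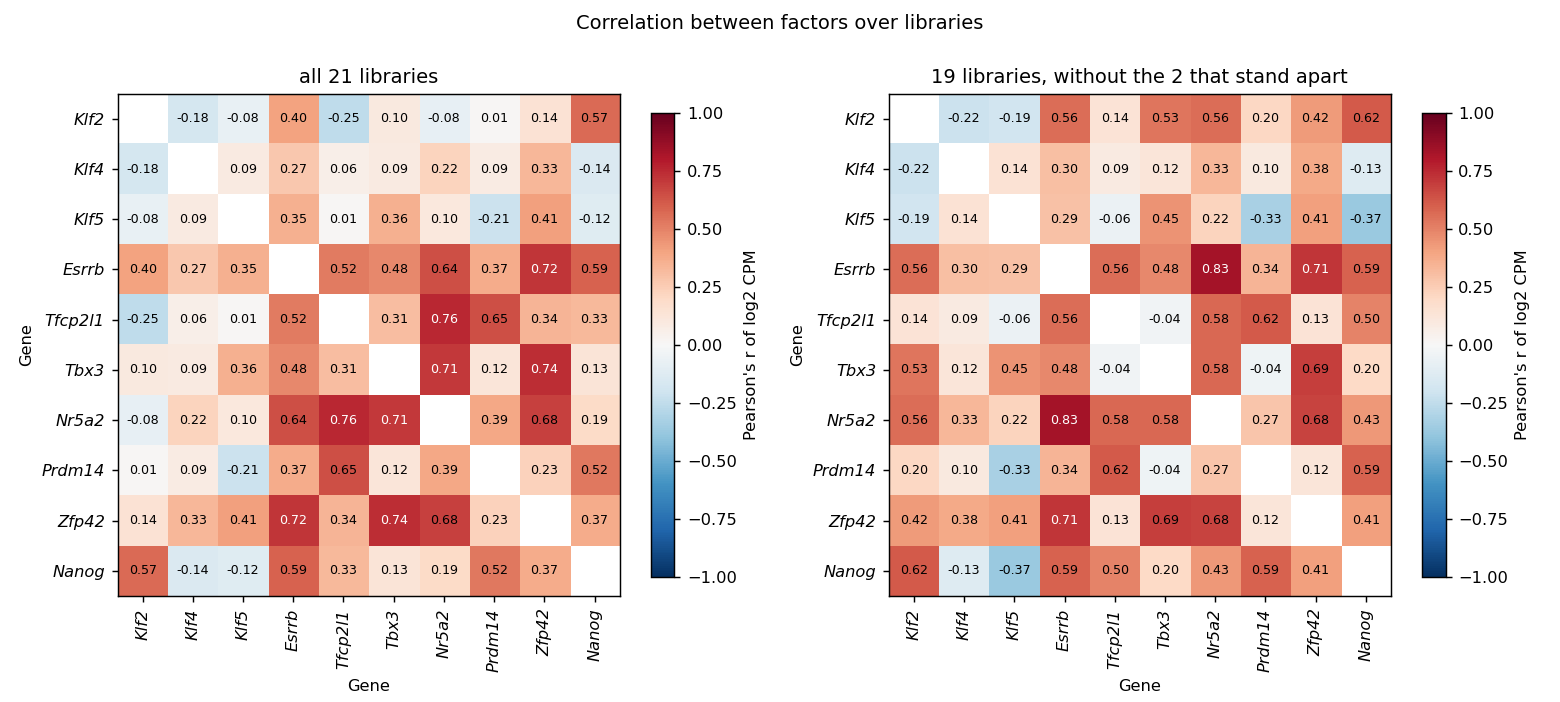
Pearson's r of log2 CPM between each pair of factors, over all 21 libraries (left) and over the 19 without 2i+LIF LP replicate 1 and 2i+LIF PO replicate 1 (right). Esrrb, Nr5a2 and Zfp42 form a block of positive values in both, the values of Klf4 lie between -0.22 and 0.38, and the Klf2 row differs most between the panels.

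Of 9449 other genes with a mean of at least 5 CPM, those whose log2 CPM was most like each factor over the 21 libraries were as follows. Siva1 (r = 0.920) and Rnf113a2 (0.913) were most like Klf2, Ift172 (0.754) and Mfge8 (0.702) most like Klf4, and Lzts2 (0.830) and Srebf2 (0.775) most like Klf5. For Tfcp2l1 they were Hip1 (0.886) and Adam19 (0.885), and for Tbx3 Nectin1 (0.880) and Hspg2 (0.859). Esrrb was followed by Uggt1 (0.906) and Lasp1 (0.898), and Nr5a2 by Tln1 (0.921). For Prdm14 they were P2rx4 (0.819) and Rundc3a (0.764), for Zfp42 Zfp57 (0.817) and Chga (0.810), and for Nanog Nsmce3 (0.904) and Cd9 (0.891). These are the extremes of many values that share the same libraries. Klf4 had the lowest best match of the 10.

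Other genes of the network were read from lists chosen with earlier results of these data known. Of 13 genes for the inputs to the factors, LIF receptor, JAK, STAT3, GSK3, beta-catenin and MEK among them, 3 fell in 2i+LIF HP against PO and none rose: Lifr, the LIF receptor (-1.72, SE 0.51, adjusted p = 0.0316), Stat3 (-1.68, SE 0.52, adjusted p = 0.0384) and Socs3, a STAT3 target (-2.93, SE 0.61, adjusted p = 0.00309), given as log2 fold changes from edgeR. Of all genes tested, 4.79% fell there. In LIF HP, 1 fell, beside 5.17% of all genes: Lifr (-2.15, SE 0.53, adjusted p = 0.0106), which also fell against LIF LP (-2.02, SE 0.52, adjusted p = 0.0158). In CH+LIF HP, 2 fell (2.45% of all genes), Tcf7l1 (-2.05, SE 0.55, adjusted p = 0.0254), the repressor relieved by GSK3 inhibition, and Map2k1, which encodes MEK1 (-1.74, SE 0.44, adjusted p = 0.0179). In LIF LP, where 6.11% of all genes fell and 5.84% rose, Map2k1 fell (-1.83, SE 0.44, adjusted p = 0.00749) and Jak1 rose (0.95, SE 0.31, adjusted p = 0.0443), and none of the 13 passed in 2i+LIF LP (2.27% of all genes fell and 2.79% rose) or CH+LIF LP (4.07% and 4.24%). The median log2 fold change of the list against PO lay between -0.73 and -0.30 in the 6 groups.

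All 21 listed partners of the factors were tested, Pou5f1, Sox2 and Nodal pathway genes among them. Against PO, 12 fell and 2 rose in 2i+LIF HP, and 7 fell and 1 rose in LIF HP. Of all genes, 4.79% fell and 5.8% rose in the first and 5.17% fell and 7.1% rose in the second. At most 1 fell and at most 2 rose in each of the other 4 groups, where 2.27% of all genes fell and 2.79% rose (2i+LIF LP), 4.07% and 4.24% (CH+LIF LP), 6.11% and 5.84% (LIF LP), and 2.45% and 3.36% (CH+LIF HP). The partners that fell most and rose most in 2i+LIF HP were Lefty2, a Nodal antagonist (-4.32, SE 0.68, adjusted p = 0.000207), and Dppa3, also called Stella (5.05, SE 0.90, adjusted p = 0.000947). In LIF HP they were Utf1, a chromatin-associated stem cell factor (-3.60, SE 0.73, adjusted p = 0.00323), and Pou5f1, which encodes OCT4 (1.39, SE 0.40, adjusted p = 0.0231). Between HP and LP, 7 partners fell in LIF and 6 fell and 1 rose in 2i+LIF, contrasts in which 0 and 1 of the 10 factors passed. Of all genes, 4.63% were lower in the LIF contrast, and 2.05% were lower and 1.63% higher in the 2i+LIF contrast. In CH+LIF none passed.

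Of 10 genes of the formative and primed epiblast, the states that follow the naive one, 6 passed the filter. In LIF LP against PO 3 rose: Pou3f1 (5.11, SE 1.21, adjusted p = 0.00757), Zic2 (2.14, SE 0.56, adjusted p = 0.0131) and Dnmt3a (1.34, SE 0.42, adjusted p = 0.0378). Of all genes, 5.84% rose there. Pou3f1 rose in CH+LIF LP as well (5.03, SE 1.21, adjusted p = 0.0124; 4.24% of all genes rose). Dnmt3a also rose in 2i+LIF HP (1.72, SE 0.42, adjusted p = 0.0104), where Lef1 rose (4.97, SE 1.07, adjusted p = 0.00431) and Otx2, a driver of exit from the naive state, fell (-2.69, SE 0.75, adjusted p = 0.0218). Otx2 fell in LIF HP as well (-3.28, SE 0.81, adjusted p = 0.0109), and there no gene of the list rose. The groups with the lowest Zfp42 and Tbx3, 2i+LIF HP and LIF HP, were the 2 in which Otx2 fell. In 2i+LIF HP the Wnt target Sp5 averaged 361.5 ± 197 CPM (SD, n = 3), against at most 32.5 CPM in any other group.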

How the data were processed

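The authors deposited 1 table of counts per library, whole numbers per Ensembl gene ID and not normalised. The submitters' processing notes name bcl2fastq, STAR 2.6.0a, HTSeq and the mm10 build; annotation, strand setting and filters are not given in the sources used here. Of each library's entries 47.4 to 62% were gene counts, and 5 closing entries that name no gene were left out. Symbols and positions came from GENCODE M21, which held 31011 of 31053 IDs. The members and lists were chosen with earlier results of these data known, and the KLF and OCT4-SOX2 motifs were added last.

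All 21 libraries entered 1 edgeR 4.0.16 quasi-likelihood fit (R 4.3.3; TMM, filterByExpr, a coefficient per group, 14 residual degrees of freedom). It gave 15 contrasts of 2 groups, 3 interactions and 1 joint test, two-sided, with Benjamini-Hochberg adjustment over 10643 genes within each and a threshold of 0.05. For log2 CPM the prior count was 2. The named genes were the 10 members, the 2 genes most like each by r (1 is not reported here), and the list genes called with the largest changes; other list genes named beside a count of 3 or fewer were chosen after their values were seen. Intervals and the limit of 3 counts for a 0 cover no amplification, since no molecular identifiers were reported. Alternatives were DESeq2 1.42.0, DESeq2 size factors, no filter, the replicate block, only the groups compared, mitochondrial genes and Gm42418 removed, both libraries that stood apart omitted, and each library left out in turn.

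Replicate numbers are shared between groups without a stated meaning. Same-numbered deviations correlated above 0.1 in all 3 pairs only for 2i+LIF LP against PO (0.397, 0.345 and 0.179). The fit was tested on simulated counts for LIF HP against LIF LP with 200 genes changed: 0 of 190 tested were called at 2-fold over 10332 genes, 115 of 196 (58.7%) at 4-fold over 10317 genes and 172 of 199 (86.4%) at 8-fold over 10323 genes. Unchanged genes called numbered 0, 4 and 14. All other genes were simulated without change, whereas 9.96% of all genes were called in the real contrast. The adjusted threshold therefore differs, and these shares do not give the sensitivity of the real tests.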

Additional observations from a re-analysis of the deposited data

How the results depend on the processing

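No called change of a factor reversed direction: 27 calls were refitted 351 times, 262 refits passed and 89 did not, and of the 162 that left out 1 library 97 passed. Counts of factors called that moved by over 1.5 times, or from or to 0, were as follows. Smaller moves are not listed, and the causes were not tested. The share of all genes called in these refits is not given here, except for some DESeq2 contrasts above. Whether the moves are particular to the factors is therefore not known. With DESeq2 the counts became 1 (LIF LP against 2i+LIF LP), 2 (CH+LIF HP against 2i+LIF HP, LIF HP against 2i+LIF HP, 2i+LIF HP against 2i+LIF LP, LIF HP against LIF LP), 5 (CH+LIF HP against PO), 1 (CH+LIF against 2i+LIF interaction) and 5 (joint test). With no filter they were 1 (LIF LP against 2i+LIF LP, LIF HP against LIF LP), 2 (2i+LIF HP against 2i+LIF LP) and 4 (joint test). DESeq2 size factors gave 2, and removal of mitochondrial genes and Gm42418 gave 3, in the joint test. Without both libraries that stood apart the counts were 2 (CH+LIF HP and LIF HP against 2i+LIF HP), 1 (LIF HP against CH+LIF HP), 3 (LIF HP against LIF LP), 4 (2i+LIF LP against PO), 5 (CH+LIF HP against PO) and 5 (joint test). Fits of only the groups compared, which use fewer libraries, gave 1 (LIF HP against 2i+LIF HP), 3 (LIF HP against CH+LIF HP), 0 (2i+LIF HP against 2i+LIF LP), 4 (LIF HP against LIF LP) and 4 (joint test); against PO they gave 0 (2i+LIF LP), 1 (CH+LIF LP), 3 (LIF LP), 2 (2i+LIF HP) and 1 (LIF HP).

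With the replicate number as a block, the pairing gave 3 calls rather than 2 in 2i+LIF LP against PO, adding Tfcp2l1. Elsewhere same-numbered libraries share only a number; there the block gave 3 rather than 2 in CH+LIF HP against PO, adding Zfp42, and, by over 1.5 times, 2 (2i+LIF HP against 2i+LIF LP), 1 (LIF HP against LIF LP) and 2 (joint test).

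Leaving out each library in turn gave 0 to 2 calls for CH+LIF HP against 2i+LIF HP, 1 to 3 in 2i+LIF HP against 2i+LIF LP and 1 to 4 in the joint test. Against PO it gave 0 to 3 (2i+LIF LP), 2 to 5 (CH+LIF LP), 1 to 4 (LIF LP), 2 to 6 (2i+LIF HP), 0 to 3 (CH+LIF HP) and 2 to 4 (LIF HP). Depth limits Prdm14 most, with 0 to 99 counts per library.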
